A study of Mus musculus with 30 samples.

Results

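The stomach of the mouse was compared with 14 other adult tissues on 2-colour microarrays. The stomach was represented by 2 arrays of the 30 in the series, which covered 15 tissues with 2 arrays each (besides stomach: skin, bladder and eyes; large and small intestine; liver, kidney and lung; heart and muscle; bone and fat; cerebellum and brain cortex). All tissues came from untreated male C57BL/6 mice, of 28 weeks by the labels (the methods of the study give another age). RNA of each tissue was labelled with Cy3, and a common reference, a mixture of a universal mouse RNA with RNA of MC1 embryonic stem cells, was labelled with Cy5. The submitters stated that replicates came from different animals, except for bone and fat, which they described as not replicated although both tissues have a pair of arrays. Each value below is log2(Cy3/Cy5), the level in the tissue relative to the reference, so that a probe can be compared between tissues but not with another probe. The labels do not say which part of the stomach was taken.

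The mouse stomach joins unlike linings. Its upper part, the forestomach, is lined by a keratinising squamous epithelium like that of the epidermis, whereas the glandular part is lined by a simple columnar epithelium with mucous, acid-secreting, pepsinogen-secreting and hormone-secreting cells. The columnar lining shares many genes with the intestine. Genes higher in stomach were therefore divided by whether skin or the intestines also carried them.

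Stomach was set against the mean of the other 14 tissues for 21019 probes that were well above background in at least 1 tissue. Of these, 810 were higher in stomach by a log2 difference of 2 or more, or 3.85%, and 78 were lower, or 0.371%, at an adjusted p under 0.05 in limma. These p-values measure the spread between arrays of a tissue and not the spread among the 14 tissues. A called probe can therefore be as high or higher in another tissue. All 810 were above background on both stomach arrays. A gene symbol was at hand for 24% of the tested probes and for 137 of the 810, most of them genes of chromosome 1 and cDNA clones, so the named genes are a sample and not a survey of the stomach. The probes just inside and just outside the threshold had differences of 2.001 and 1.995. The ratio of higher to lower calls depended on the scaling: 91.2% of calls were higher here, 79% with the log ratio of the scanner software (1260 higher, 334 lower) and 80.8% with the authors' value table (1227 higher, 291 lower).

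Both stomach arrays lay on 1 slide of 4 arrays, with small intestine replicate 2 and large intestine replicate 1. With the tissue means removed, arrays of 1 slide correlated at 0.69 and arrays of 1 scan day at 0.59. The main fit treated all arrays as independent, so its SE and p-values do not allow for this correlation. The stomach arrays correlated at r = 0.982 with each other over the tested probes. They correlated at 0.739 and 0.721 with large intestine replicate 1 and at 0.63 and 0.61 with large intestine replicate 2. The small intestine pair showed no such gap: replicate 2, on the same slide, was at 0.675 and 0.666, and replicate 1, on another slide, at 0.676 and 0.674. With the bladder arrays r was 0.671 to 0.715. These are descriptions, since all arrays share the reference and the probes. The probes of the stomach arrays well above background made up 66.6% and 64.3% of spots in Cy3, within the range of 53.9% to 76.9% over the series, and no spot was saturated. The Cy5 signal of the common reference was not even across arrays: it was 1 or more higher on the log2 scale on the stomach arrays than on the others for 21.7% of the 810 probes higher in stomach, against 0.923% of all probes. Log ratios of such probes are smaller than the differences in Cy3, and the cause was not tested.

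Skin and the mean of the small and large intestine were each set against the 11 remaining tissues. Skin was higher by 2 or more for 3.86% of all probes and the intestines for 4.88%. Of the 810 stomach probes, 152 (18.8%) were also higher in skin and not in the intestines, 258 (31.9%) in the intestines and not in skin, 60 (7.41%) in both and 340 (42%) in neither. A class is defined by calls, and a probe in the class shared with neither may lie just under the threshold in skin or the intestines.

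**Figure D1:**
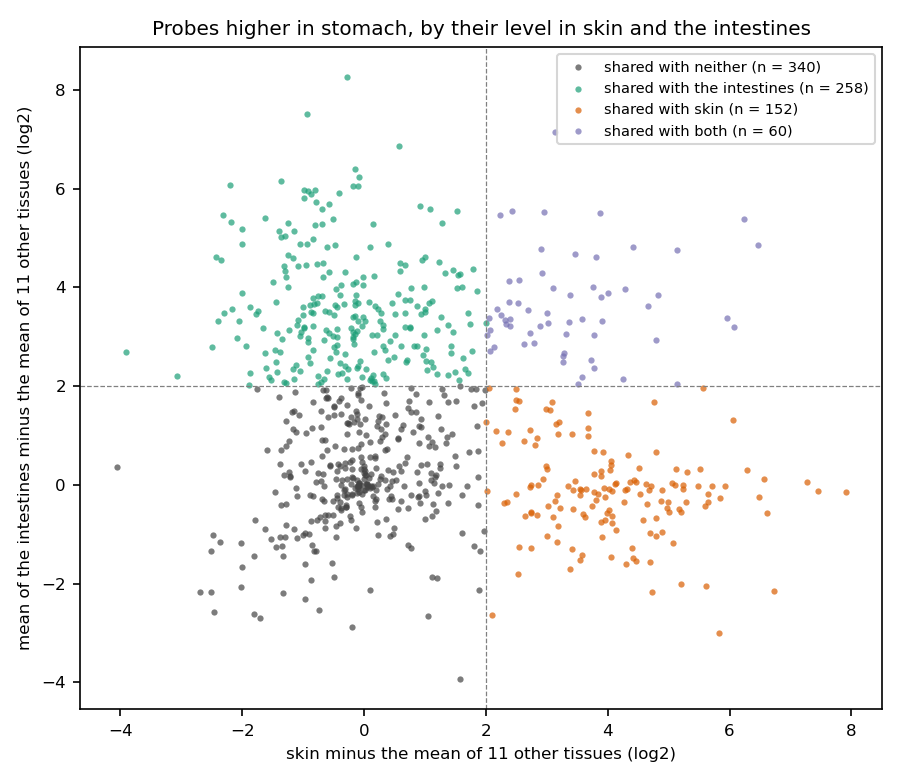
Each point is 1 of the 810 probes higher in stomach; the horizontal axis gives the log2 difference of skin, and the vertical axis that of the mean of the intestines, each from the mean of 11 other tissues. Dashed lines mark the threshold of 2. The 152 orange probes extend to the right, the 258 green probes upwards, the 60 violet probes lie at the upper right and the 340 dark probes were called in neither direction.

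The class shared with skin held genes of keratinised epithelium. Of 20 tested members of a squamous list 15 were higher in stomach, against 3.85% of all probes, 9 of them in this class, and the median difference of the list was 3.60 against -0.09 over all probes. Krt10, a keratin of the upper epidermal layers, was 4.64 and 4.66 on the stomach arrays, 5.54 and 5.34 on the skin arrays and between -0.98 and -0.02 on the 4 intestinal arrays. Its difference from the other 14 tissues was 3.88 ± 0.15 (SE, adjusted p = 1.91e-13), and stomach was below skin by 0.79 (adjusted p = 0.00533). Lce1a2, a component of the cornified envelope, was 4.74 and 4.77 in stomach against 5.19 and 5.16 in skin. Sprr1a, another envelope precursor, was 2.97 and 3.02 in stomach, 1.57 and 2.13 in skin and 3.25 on average in bladder. Abca12, a lipid transporter of the epidermal barrier, was 3.82 and 4.37 in stomach against 3.85 and 4.11 in skin. The stomach and skin arrays of Sprr1a did not overlap, whereas those of Abca12 did. The tested members of the list that were not called were Il1rl2, Kprp, Il20, Il24 and Serpinb3b. Il1rl2 was 3.58 on average in skin but 0.73 in stomach, below bladder (1.20) and lung (1.68). Kprp was 0.37 on average in stomach and 0.70 in skin. Il20 and Il24 were 0.01 and -0.75 in stomach and -0.05 and -0.72 in skin.

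The 6 genes of this class with the largest differences from the other tissues were 2200001I15Rik (Fam25c), 2310002J15Rik (Cysrt1), 4732474O15Rik (Macc1), Serpinb2, Serpinb12 and Lce1a2. Cysrt1 was 5.68 and 5.54 in stomach and 5.82 and 5.49 in skin, a difference of -0.04 between these tissues (adjusted p = 0.933), with 4.96 and 4.15 in eyes. Macc1 was 5.86 and 5.80 in stomach, 4.37 and 4.20 in skin and 4.12 and 4.26 in bladder, and both stomach arrays were above all 28 others. Fam25c was 4.04 and 4.17 in stomach and 5.59 and 5.28 in skin, and stomach was lower than skin by 1.34 (adjusted p = 0.0165). Bladder, at 4.30 and 4.31, was also above stomach for this gene, and liver was at 3.32 and 3.38.

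Over the 152 probes the stomach median was 3.47 above the mean of the 11 tissues, and the skin median was 3.96. Of the 152, 10 were lower in stomach than in skin by 2 or more and 1 was higher. Other tissues with squamous or stratified linings carried part of the class: 59 of the 152 (38.8%) were 2 or more above the mean of the 11 tissues in eyes and 43 (28.3%) in bladder, tissues that are part of that mean. Over all probes these shares were 4.6% in eyes and 2.48% in bladder. The skin samples also carried skeletal muscle genes. The mean deviation of 9 such genes from the average of all tissues was 1.66 and 3.16 in skin, -0.63 and -1.20 in stomach and -1.19 to -1.07 on the intestinal arrays. Stomach replicate 1 lay above the intestines in this mean but not in every gene. Myl1, a myosin light chain, was 1.96 there and -0.02 on replicate 2, and Ankrd23 was 1.47 and 0.92 in stomach against at most 0.15 in the intestines. Chrnd, a subunit of the muscle acetylcholine receptor, was -0.11 on stomach replicate 1, below the 4 intestinal arrays. It was not above background on any of these arrays, and its mean in muscle was 0.27, so this order carries no information. In tissue means, Cacna1s was lower in stomach (-0.86) than in small (-0.37) and large intestine (-0.20). Mstn was higher (0.51 against -0.02 and 0.09). The part of muscle in the skin calls was not tested.

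**Figure D2:**
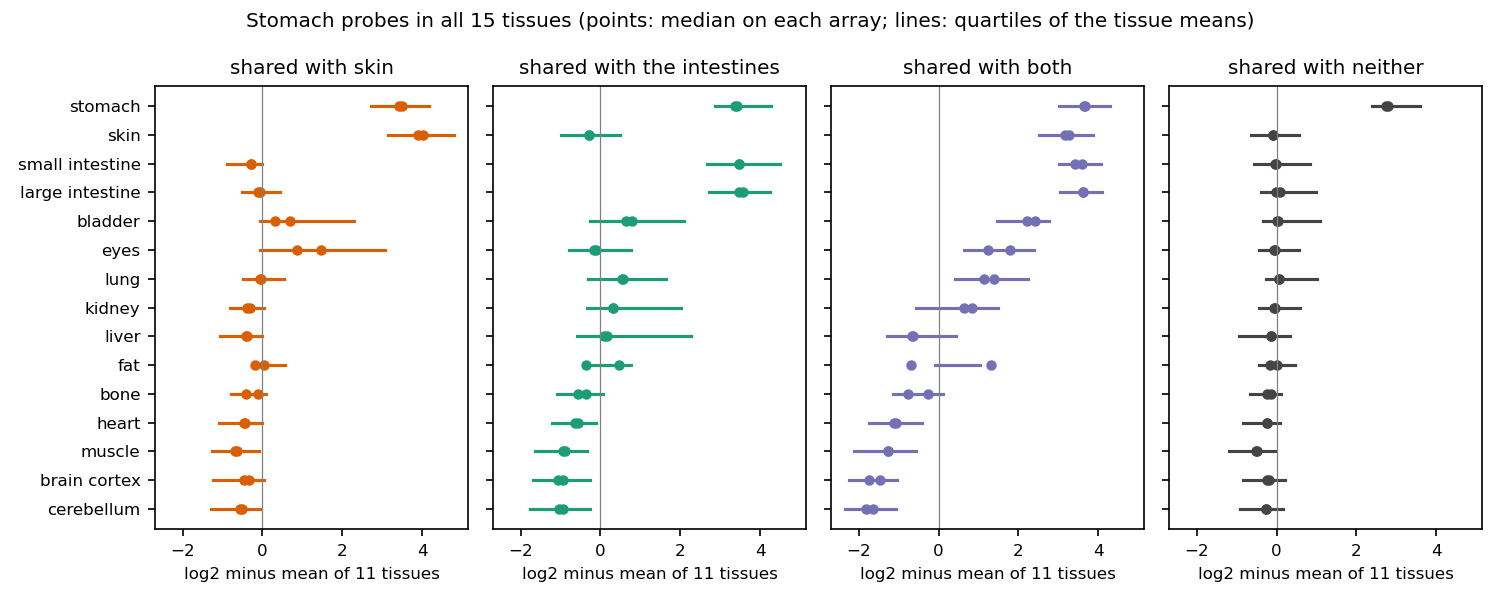
Medians of the 4 classes of stomach probes on each array (points) and the quartiles of the tissue means (lines), as log2 above the mean of the 11 baseline tissues. The class shared with skin reaches bladder and eyes, and the class shared with neither is near 0 in every tissue except stomach.

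Genes of the Serpinb family on chromosome 1 were called within and beyond that class. These genes encode serine or cysteine protease inhibitors, several of which are known from squamous epithelia. Of the 12 members in the block, from Serpinb5 (chr1:106861175-106883348) to Serpinb8 (chr1:107589926-107608978, GRCm38.p6), 11 passed the filter, 8 were higher in stomach and none was lower. Of all tested probes 3.85% were higher. The block was chosen with earlier results of these data known, and most symbols at hand were of chromosome 1 genes and clones. The count is therefore a description. The mean deviation of the 11 genes from the average of all tissues was 2.91 and 3.09 in stomach and 2.02 and 2.12 in skin. The block and the squamous list overlap: 7 of the 8 are among the 15 squamous genes called, and without the block 8 of 12 squamous genes were higher. The 8 Serpinb genes comprised Serpinb5, Serpinb12, Serpinb11, Serpinb7 and Serpinb2 in the class shared with skin, and Serpinb13, Serpinb3a and Serpinb3c in the class shared with neither.

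Serpinb3c was 6.50 and 6.53 in stomach, 0.89 and 0.47 in skin, and 3.28 and 3.38 in eyes. Its difference from the other 14 tissues was 6.30 ± 0.10 (SE, adjusted p = 1.57e-18). Serpinb3a was 4.51 and 4.65 in stomach, 1.99 and 1.76 in eyes and 1.13 on average in skin. Serpinb13 was 5.03 and 5.58 in stomach and 1.39 on average in skin, and on both stomach arrays it was above every other array. Serpinb12 was 4.61 and 4.62 in stomach and 2.53 and 2.81 in skin, higher in stomach by 1.95 (adjusted p = 0.000947). In these 4 genes and in Serpinb3b the stomach arrays lay above all others.

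Several other members were not above skin. Serpinb7 was 2.61 and 2.72 in stomach and 4.75 and 4.55 in skin, lower in stomach by 1.99 (adjusted p = 1.57e-08). Serpinb2 was 4.03 and 4.61 in stomach and 5.79 and 5.76 in skin, a difference of -1.46 that did not pass the test (adjusted p = 0.0807). Serpinb11 was 4.57 and 4.68 in stomach, 4.78 and 4.24 in skin, and 5.10 and 4.90 in eyes, and the stomach and skin arrays overlapped. Serpinb5 was 3.21 and 3.24 in stomach, 4.37 and 4.19 in skin, 3.77 and 3.56 in eyes, 3.25 and 3.23 in bladder, and 3.07 and 1.78 in large intestine, so that stomach was not above bladder. Serpinb3b had a difference of 1.12 and Serpinb8 of 0.91, both below the threshold of 2 here but 3.80 and 2.27 with the scanner log ratio, and Serpinb10 had one of -0.01 (adjusted p = 0.968). Serpinb3d did not pass the filter. Serpinb5 (1.62) and Serpinb7 (1.82) fell under the threshold with median centring. Where an intestine was not above background, stomach was at least 521-fold higher than small intestine for Serpinb12, at least 98.8-fold higher than large intestine for Serpinb3c and at least 14.1-fold higher than small intestine for Serpinb3a. These bounds are on the normalised Cy3 channel and are open to dye bias, since dyes were not swapped. For Serpinb12 the Cy5 signal was also higher in stomach (10.8 against 6.31 on the log2 scale), so its difference in log2(Cy3/Cy5) was only 4.68.

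**Figure D3:**
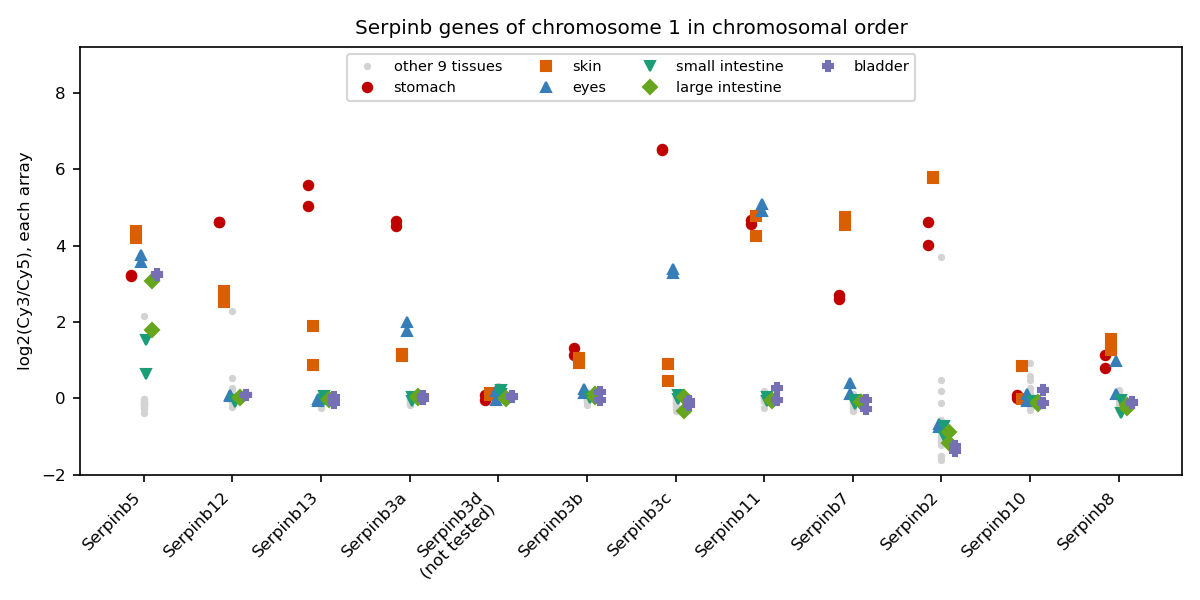
Log2(Cy3/Cy5) of the 12 Serpinb probes of chromosome 1 on each of the 30 arrays, in chromosomal order. Red circles show both stomach arrays: they are above all other arrays for Serpinb12, Serpinb13, Serpinb3a, Serpinb3b and Serpinb3c, and below both skin arrays (orange squares) for Serpinb5, Serpinb7, Serpinb2 and Serpinb8.

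Serpinb3a, Serpinb3b and Serpinb3c have similar sequences, and whether a probe also reads transcripts of another copy was not tested, so their separate levels are uncertain. Their promoters were compared because the genes moved to unlike degrees. The windows of 250 bases before and 50 bases after the start, from RefSeq (GRCm38.p6, minus strand), were 79.9% identical between Serpinb3a and Serpinb3b, 75.1% between Serpinb3a and Serpinb3c and 90% between Serpinb3b and Serpinb3c, whereas that of Serpinb3d was 49.1% to 52% identical to the other windows. The windows are written below with the TATA-like motif TATAAA in capitals. They lie at chr1:107052254-107052553 (Serpinb3a), chr1:107161065-107161364 (Serpinb3b) and chr1:107278322-107278621 (Serpinb3c).
Serpinb3a: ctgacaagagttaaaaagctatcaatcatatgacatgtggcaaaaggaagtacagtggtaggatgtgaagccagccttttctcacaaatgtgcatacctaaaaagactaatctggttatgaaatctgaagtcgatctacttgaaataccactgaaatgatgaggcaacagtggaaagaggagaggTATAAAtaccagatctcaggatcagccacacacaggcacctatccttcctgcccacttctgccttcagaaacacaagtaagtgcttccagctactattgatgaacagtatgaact
Serpinb3b: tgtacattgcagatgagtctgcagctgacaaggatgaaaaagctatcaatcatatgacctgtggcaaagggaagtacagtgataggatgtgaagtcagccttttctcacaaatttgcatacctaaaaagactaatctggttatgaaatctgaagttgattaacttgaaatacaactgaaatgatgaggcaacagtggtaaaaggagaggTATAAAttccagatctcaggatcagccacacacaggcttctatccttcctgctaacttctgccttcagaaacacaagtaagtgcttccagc
Serpinb3c: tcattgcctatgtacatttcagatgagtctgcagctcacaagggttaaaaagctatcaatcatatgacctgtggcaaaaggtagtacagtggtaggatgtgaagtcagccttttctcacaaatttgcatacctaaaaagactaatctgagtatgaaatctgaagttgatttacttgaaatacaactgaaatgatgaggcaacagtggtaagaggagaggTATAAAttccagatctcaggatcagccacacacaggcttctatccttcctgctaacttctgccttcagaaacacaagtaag
TATAAA (either strand) occurred in 7 of the 11 genes of the block with a promoter window and in 13.6% of all 32851 windows. The motif TGANTCA is wider than the AP-1 site TGA(C/G)TCA, which was not counted on its own. It occurred in 7 of the 11, Serpinb5, Serpinb12, Serpinb11, Serpinb7, Serpinb2, Serpinb10 and Serpinb8, and in 7.81% of all windows. Serpinb10 and Serpinb8 were not called, so the motif did not separate called members from the others. The Serpinb11 window (chr1:107362064-107362363, plus strand), which holds TGANTCA more than once, is shown with the motif in capitals. Its copies are TGATTCA and TGAATCA, neither of them the narrower AP-1 site.
Serpinb11: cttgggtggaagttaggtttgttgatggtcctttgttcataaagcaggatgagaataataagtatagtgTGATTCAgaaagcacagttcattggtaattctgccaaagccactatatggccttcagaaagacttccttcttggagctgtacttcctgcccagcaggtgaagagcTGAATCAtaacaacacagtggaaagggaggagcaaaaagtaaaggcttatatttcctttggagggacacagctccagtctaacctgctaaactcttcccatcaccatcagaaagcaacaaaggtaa

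In the class shared with the intestines 37 of 258 probes had a symbol. Vil1, which bundles actin in microvilli, was 4.83 and 4.39 in stomach, -0.95 and -0.90 in skin, 5.09 and 5.84 in small intestine and 5.61 and 5.12 in large intestine. Kidney, at 5.07 and 4.90, was also above stomach. Vil1 was higher in stomach than in the other 14 tissues by 3.60 ± 0.27 (SE, adjusted p = 5.9e-09), and at least 87.5-fold higher than in skin on the Cy3 channel, where the difference in log2(Cy3/Cy5) was 5.53 because Cy5 was higher too (8.37 against 7.44). The 6 with the largest differences were 1810007E14Rik (Phgr1), 2210009P08Rik, 2210415F13Rik (Lypd8), AA467197, 4930403C10Rik (Fam83e) and 2210417D09Rik (Rep15). Phgr1 was 7.86 and 7.34 in stomach and 8.10 to 8.75 on the 4 intestinal arrays, lower in stomach than in the intestines by 0.93 (adjusted p = 0.00209). Rep15, an effector of the small GTPase Rab15, was 5.66 and 5.48 in stomach and 3.41 to 4.73 on the intestinal arrays, above all 28 others. For Lypd8 the difference between stomach and the intestines was -0.19 and did not pass the test (adjusted p = 0.914).

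Over the 258 probes the stomach median was 3.34 above the 11 tissues, against 3.45 in small intestine and 3.5 in large intestine, and -0.31 in skin. Stomach was higher than the intestines by 2 or more for 8 of the 258 and lower for 3. In bladder 27.1% of them were 2 or more above the 11 tissues, in liver 26%, in kidney 25.2% and in lung 21.7%, against 2.48%, 5.2%, 3.99% and 4.02% of all probes. Of 14 tested members of an intestinal epithelium list 1, Vil1, was called higher in stomach (7.14%), near the 3.85% of all probes. With size ignored, 4 were higher and 3 lower, and the median difference of the list was -0.01 against -0.09 over all probes. Ihh, a hedgehog ligand of the gut lining, had a difference of 1.88, short of the threshold, but 2.16 with slide as a random block. Gpa33, an intestinal surface antigen, was 0.38 and -0.35 in stomach and 2.59 and 3.51 in large intestine. Sucrase-isomaltase (2010204N08Rik) was -0.84 and -0.95 in stomach, 9.27 on average in small intestine, and 7.91 and -0.46 on the 2 large intestine arrays, which differed widely for this gene.

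Of the 60 probes shared with both, 8 had a symbol. Pkp1, a plaque protein of desmosomes, was 3.41 and 3.58 in stomach, 5.15 and 4.85 in skin and 1.64 to 2.78 on the intestinal arrays, so that stomach lay between them. Lad1, an anchoring filament protein, was 3.45 and 3.41 in stomach, 3.70 and 3.36 in skin and 3.56 to 3.91 on the intestinal arrays. Kdf1 (1810019J16Rik), a regulator of epidermal differentiation, was 2.57 and 2.52 in stomach, 1.92 and 1.61 in skin and 2.32 to 3.15 on the intestinal arrays. The medians of the 60 probes above the 11 tissues were 3.65 in stomach, 3.27 in skin, 3.6 in small intestine, 3.49 in large intestine and 2.3 in bladder, where 63.3% were 2 or more above the 11 tissues. In cerebellum the median was -1.8, and the medians of the single fat arrays were 1.31 and -0.68.

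Genes known from the glandular stomach were higher. Of 48 genes on a glandular list 6 had a probe with a symbol, and all 6 were called, against 3.85% of all probes, 2 in the class shared with the intestines and 4 in the class shared with neither. Slc26a9, an anion transporter of gastric surface cells, was 4.47 and 4.39 in stomach, with 2.01 on average in lung, the next tissue. Its difference from the other tissues was 4.30 ± 0.14 (SE, adjusted p = 3.04e-14), and on the Cy3 channel it was at least 60.2-fold higher than in small intestine. With Cy5 at 8.02 against 6.71, the difference in log2(Cy3/Cy5) was 4.63. Slc9a4, a sodium-proton exchanger of parietal cells, was 2.84 and 2.71 in stomach, and the mean of no other tissue was above 0.10. It passed the filter through stomach alone, so the count of 6 is a description. 1190003M12Rik (Gkn3), a gastrokine, was 4.62 and 4.29 in stomach and 2.55 on average in small intestine. Ctse, the aspartic protease cathepsin E, was 3.30 and 3.31 in stomach, 2.00 in small intestine and 2.45 in kidney on average, and 3.69 and -0.23 on the fat arrays, of which the first was above stomach. Elf3, an epithelial transcription factor, was 2.32 and 2.08 in stomach, 2.25 and 3.10 in small intestine and -1.32 and -1.20 in skin. Slc9a2, another exchanger, was 6.51 and 6.27 in stomach and 6.56 and 7.11 in small intestine, and its difference of 2.31 (adjusted p = 0.0109) lost the call without stomach replicate 1 (adjusted p = 0.119) or replicate 2 (adjusted p = 0.0918).

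The Slc26a9 promoter window (chr1:131743772-131744071, plus strand, GRCm38.p6) is shown because the gene is a glandular marker that was not above background on any intestinal array. Capitals mark the motif AGATAA, which zinc-finger factors of gut endoderm are known to bind and which lies here on the opposite strand. They also mark a run in which TATAAA overlaps its reverse complement. The first motif occurred in 11.2% of all windows.
Slc26a9: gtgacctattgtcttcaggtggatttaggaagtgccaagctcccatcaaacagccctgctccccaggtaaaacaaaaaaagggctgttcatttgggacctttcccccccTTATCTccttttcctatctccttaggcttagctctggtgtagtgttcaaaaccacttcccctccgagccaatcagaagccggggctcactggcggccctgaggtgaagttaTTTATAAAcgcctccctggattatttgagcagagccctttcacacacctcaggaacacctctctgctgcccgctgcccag

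The class shared with neither was the largest, and 188 of its 340 probes (55.3%) were above every other array on both stomach arrays. Of all tested probes, 2.07% were. The share was 13.2% in either shared class and 6.67% in the probes shared with both, an order that the definition of the classes favours, since it leaves out of the first class the probes that were high in skin or the intestines. In 23 probes no other tissue was above background on both arrays, and all 23 were of this class, as the filter and the definition of the class lead to. A stricter reading, 2 or more above each of the other 14 tissues, kept 62 probes, all of this class. Sctr, the secretin receptor, was 6.64 on both stomach arrays but 6.09 and 6.08 in muscle. 1110032A04Rik (Sptssb), a subunit of serine palmitoyltransferase, was 6.29 and 6.45 in stomach and 5.55 and 5.28 in bladder. 2200002J24Rik was 5.04 on average in stomach and 2.86 and 2.46 in small intestine. 1700008G05Rik (Fabp12), of the fatty acid-binding proteins, was 5.81 and 5.87 in stomach and 6.35 and 6.49 in eyes.

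**Figure D4:**
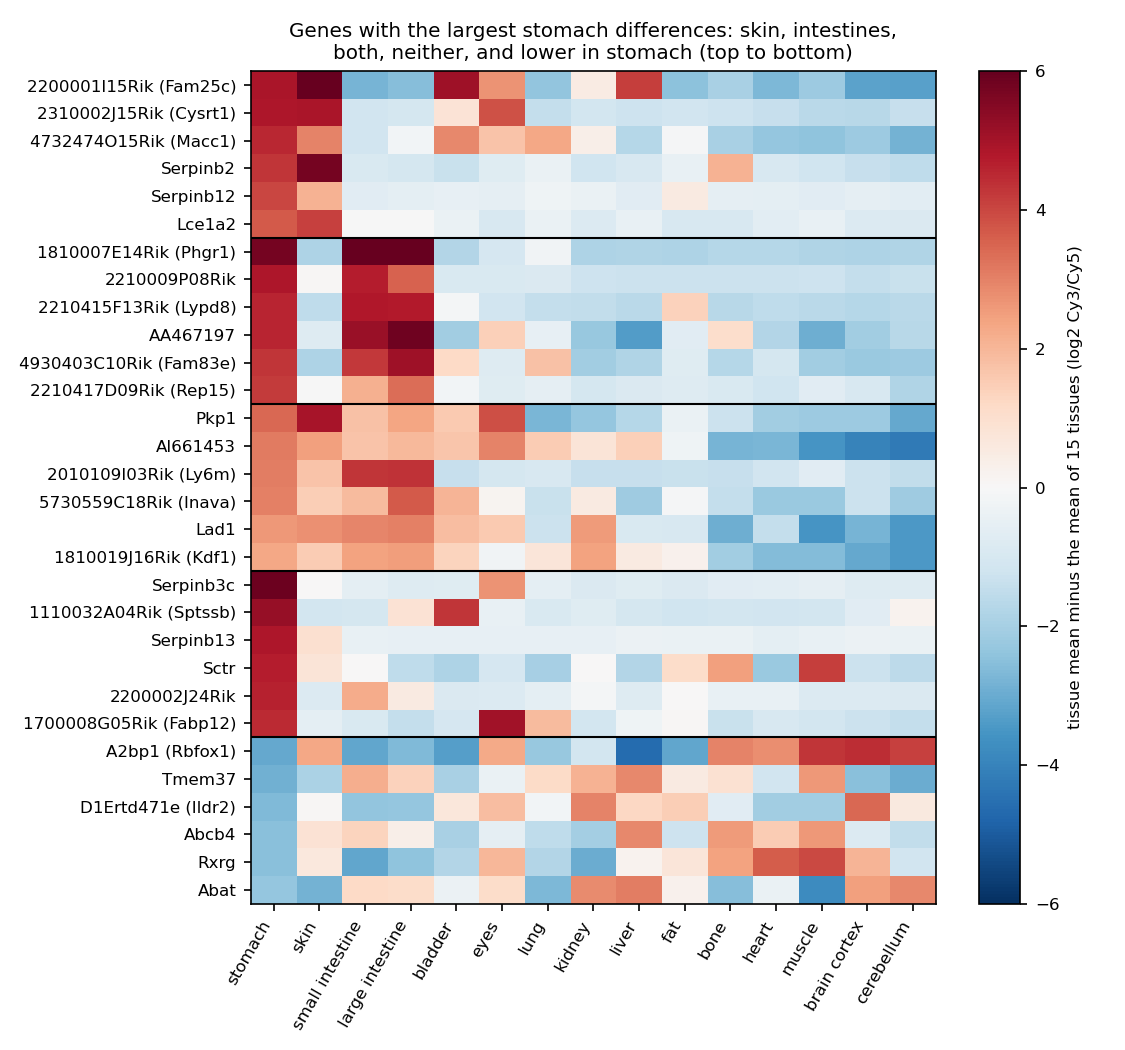
Tissue means of log2(Cy3/Cy5) minus the mean of the 15 tissues, for the 6 named genes with the largest stomach differences in each class and the 6 with the largest decreases. Red is above and blue below the mean; the stomach column is red for the first 4 blocks, skin is red in the blocks shared with skin and with both, and the intestines in those shared with the intestines and with both. In the block shared with neither, 2200002J24Rik is also red in small intestine.

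Some pancreas genes were also higher. Of 6 pancreas genes 3 were called higher in stomach, against 3.85% of all probes (2 of the 6, Amy2a5 and 2210010C04Rik, passed the filter through stomach alone, so the count is a description): Try5 and Amy2a5 in the class shared with neither, and Zg16 (1810010M01Rik), a lectin, in that shared with the intestines. The mean deviation of the 6 from the average of all tissues was 2.00 and 1.74 in stomach and -0.50 to 1.58 on the other arrays. 1810049H19Rik (Try5), a trypsinogen, was 4.46 and 4.36 in stomach, and 3.53 and -0.07 on the small intestine arrays. 1810008N23Rik (Amy2a5), a pancreatic amylase, was 2.50 and 2.01 in stomach and at most 0.23 as a mean of any other tissue. 2210010C04Rik, another trypsinogen, was 1.80 and 1.79 in stomach and fell short of the threshold at 1.93, though not with the scanner log ratio (3.84). Zg16 was 4.22 and 3.54 in stomach and 3.85 to 4.79 on the intestinal arrays. Erp27 (0.29 and 0.24 in stomach) and Aqp12 (0.24 and 0.00) were not called. Amy2a5 had a difference of 2.26 that was 1.60 on the Cy3 channel alone. The part of pancreas tissue in these calls was not tested.

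For markers of other cell types of the wall, 3.85% of all probes called higher is the background. Of 7 smooth muscle genes only Csrp1 was called (2.31, adjusted p = 2.94e-05), and the median difference was 0.92, with 6 of the 7 higher at an adjusted p under 0.05 when size was ignored, against 3494 of all 21019 probes. The highest level of Csrp1 was in bladder, at 4.97 on average. Of 6 neuroendocrine genes Resp18 (2.76) and Scg2 (2.47), both of secretory granules, were called, and both were also high in brain or eyes. The intestines carried them too: Scg2 averaged 6.02 in small intestine and 4.97 in stomach, and Resp18 4.17 in large intestine and 4.68 in stomach. The mean deviation of the 6 genes was 1.14 and 0.97 in large intestine and 0.85 and 0.77 in stomach. Of 16 immune genes only Rgs13 was called (2.53), with a median of -0.34 over the list. None of 9 skeletal muscle genes and 2 fat genes was called. With size ignored, 7 of the 16 immune genes, 5 of the 9 skeletal muscle genes and 1 of the 2 fat genes were lower, against 3897 of all probes.

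Clones of the RIKEN collection carry the tissue of their cDNA library in their number. Of 48 tested clones of the stomach series, 11 (22.9%) were higher in stomach, 7 of them in the class shared with the intestines, and 2 of the 48 had passed the filter through stomach alone. Of 138 clones of the tongue series, 11 (7.97%) were, 7 of them shared with skin. Of 83 clones of the pancreas series, 12 (14.5%) were, 1 of which (1810008N23Rik) had passed through stomach alone, and of 57 clones of the small intestine series, 2 (3.51%). Among all tested probes with a symbol 2.71% were higher.

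**Figure D5:**
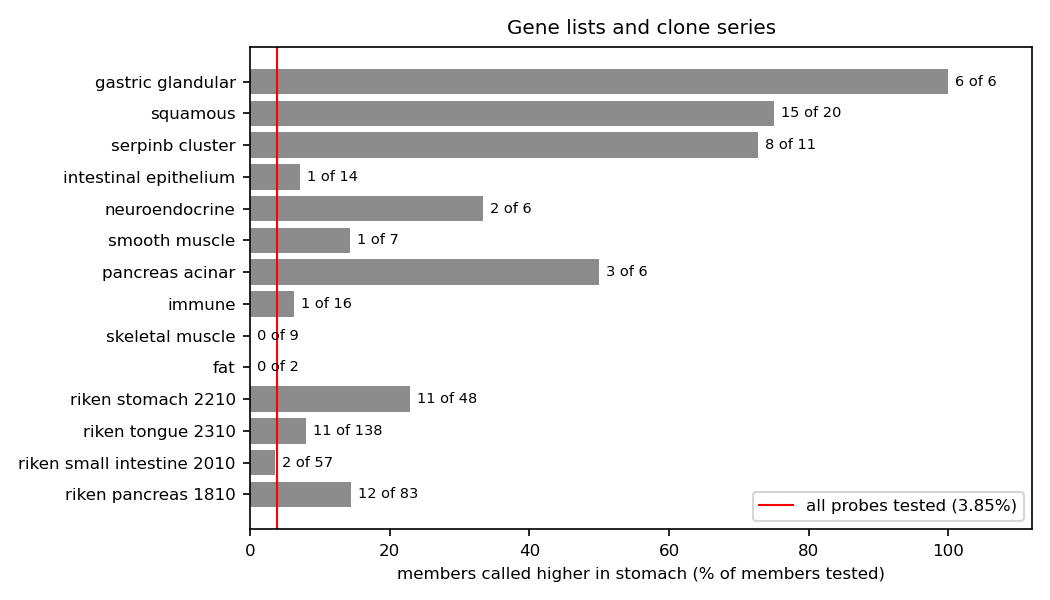
Percentage of the tested members of each gene list and clone series that were higher in stomach; the red line marks the 3.85% of all probes tested. The counts stand beside the bars, and the gastric glandular, squamous and Serpinb lists, of which the last 2 share members, are the highest.

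Direct comparisons gave the differences between stomach and its relatives. Stomach was higher than skin by 2 or more for 3.93% of probes and lower for 3.42%, and it was higher than the intestines for 2.84% and lower for 2.26%. Against the intestinal arrays of the same slide, 544 of the 596 probes called higher than the intestines were 2 or more above, and against the intestinal arrays of other slides 561 were. The median of the class shared with neither, as stomach minus intestines, was 2.77 on the same slide and 2.76 across slides. The 596 probes were called on these same intestinal arrays, and that class leaves out probes high in the intestines. The values are therefore descriptions and cannot show whether the slide had an effect.

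The probes lower in stomach were fewer. Rbfox1 (A2bp1), a neural and muscle splicing regulator, was 1.35 and 0.35 in stomach and 8.36 on average in brain cortex, and it fell by 3.28 against the other tissues (adjusted p = 4.5e-07). Low means were shared with small intestine (0.81), large intestine (1.25), bladder (0.61), fat (0.78) and liver (-0.70). Tmem37 was -2.52 and -2.78 in stomach and 3.12 in liver, with cerebellum, at -2.72 on average, about level with stomach. Abcb4, the phospholipid exporter of bile, was -1.65 and -2.10 in stomach and 3.53 in liver on average, lower than both skin and the intestines by 3.38. Rxrg, a retinoid X receptor, was 0.41 and 0.07 in stomach and 6.71 in muscle. Its means in small intestine (-0.355) and kidney (-0.22) were below stomach, and large intestine (0.31) was about level. The count of 78 rose to 129 without stomach replicate 1 and was 186 with slide as a random block.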

How the data were processed

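Processed files of 30 Agilent 2-colour arrays were used. Per the file headers, the authors' spot files came from Agilent Feature Extraction 9.5.1.1 and hold the intensity of each spot in both channels, the flags of the software and its log10 ratio of Cy5 over Cy3. The authors' value table of 25030 probes holds log10 values with a column median of 2.5 to 2.65. Its deviations between arrays followed the scanner log ratio turned to Cy3 over Cy5 (r = 0.963 to 0.998), so its direction is settled and its centring per probe is not.

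Mean signals were corrected with normexp (offset 50) in limma 3.58.1 (R 4.3.3). After removal of controls and of 475 outlier-flagged spots, ratios were normalised by loess within arrays, and spots of a probe were averaged. Probes of the value table above background in Cy3 on both arrays of at least 1 tissue were kept (21019). One coefficient per tissue was fitted with limma over all 30 arrays, with Benjamini-Hochberg adjustment over all kept probes. SE are those of the moderated fit, and they and the p-values reflect the spread between arrays of a tissue, not that among tissues. A probe was called at an adjusted p under 0.05 and a log2 difference of 2 or more. A pair of arrays per tissue limits the precision.

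Symbols came from the probe lists published with the study, updated through RefSeq (GRCm38.p6). Of the 5049 tested probes with a symbol, 3167 were current, 1535 were synonyms and 347 were in neither. Named genes were the 6 with the largest difference in each class and among the lower ones, and the members of the lists. The members, lists and thresholds were chosen with earlier results of these data known. The fits were tested on simulated data. "At least" folds compare means of the Cy3 channel after Aquantile normalisation with the lowest signal above background on each array. Motifs were searched on both strands. With slide as a fixed block the comparison with all 14 tissues cannot be estimated, because the slides of bladder and kidney, of heart and liver, and of the eyes, lung and brain samples share no tissue with the slides linked to that of stomach. That block was fitted for stomach against skin and against the intestines.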

Additional observations from a re-analysis of the deposited data

Results flagged for a closer look

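The array also carries probes outside the authors' value table, which entered no comparison of the report. Of 13616 such probes past the same filter, 299 (2.2%) were higher in stomach by 2 or more and 12 were lower. They have no gene symbol here.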

How the results depend on the processing

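The higher counts were stable to single arrays and the lower count was not. Leaving out each stomach, skin or intestinal array in turn gave 801 to 818 probes higher in stomach, 52 to 129 lower, 150 to 158 shared with skin, 245 to 267 with the intestines, 54 to 62 with both and 331 to 353 with neither. With the scanner log ratio the counts were 1260 higher, 334 lower, 247, 404 and 139 shared with skin, the intestines and both, and 2568 and 1722 that differ from skin and from the intestines, where the report has 1543 and 1070. With the authors' value table they were 1227, 291, 239, 391, 136, 2473 and 1677. Median centring gave 44 lower and 29 shared with both. Slide or scan day as a random block gave 186 or 158 lower. A threshold of 1 gave 1941 higher, 1123 lower, 324, 647, 292 and 678 in the classes (skin, intestines, both, neither), and 4075 and 3027 against skin and the intestines. Above each of the other 14 tissues there were 62. The cause of these shifts was not tested, except that a lower threshold and a stricter definition change counts by construction. The remaining alternatives kept their counts within 1.5 times, among them slide as a fixed block for stomach against skin (1861) and the intestines (1088), and the fit without the intestinal arrays of the stomach's slide (822 higher), which was chosen after seeing the data.

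The replicate block gave the same count of 810, and all 810 probes were shared. Replicate numbers are not known to pair tissues: the deviations of the stomach arrays correlated over 0.1 with those of 2 of 14 tissues (range -0.14 to 0.29). Among 57 named genes no difference changed sign. In 21 of 1078 gene-by-setting values a call was lost, all with differences of 1.45 to 2.43, among them those of Slc9a2, Elf3, Serpinb5, Serpinb7, Scg2, Amy2a5 (1810008N23Rik), Rgs13 and Kdf1 (1810019J16Rik). In 10 a call was gained, for Serpinb3b, Serpinb8, 2210010C04Rik and Ihh, as with the authors' value table (3.54, 2.09, 3.54 and 2.05). No spot was saturated, and for probes not above background in a tissue the difference is only a bound.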

Other observations

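The tissue nearest to stomach, taken as the other tissue with the highest mean for each of the 810 probes, was skin for 157 (19.4%), large intestine for 154 (19%), small intestine for 138 (17%), liver for 81 (10%), bladder for 59 (7.28%) and eyes for 45 (5.56%).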
